A study of Mus musculus with 16 samples.

Results

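The choroid plexus and ependymal genes are 35 genes listed by name: 27 of the choroid plexus epithelium and 8 of ciliated ependymal cells. They were looked up in a table of 22572 gene names measured by RNA sequencing of mouse hippocampus, and the values of all entries of a name were added. There, 34 of the 35 were found under their own name, and Cfap126 was found under its older symbol 1700009P17Rik and is given apart. Of the 34, 33 had a mean of at least 1 FPKM, a fragment count divided by transcript length and library size, over the 16 libraries and entered the tests: 26 choroid plexus genes and 7 ependymal genes, among 12648 genes tested. The list was chosen for where the genes are expressed and was drawn up with earlier results of these data in view.

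The animals were male C57BL/6 mice. They were either wild type (WT) or were knockouts of Bgn (Bgn0/-, BgnKO), the X-linked gene of biglycan, a small proteoglycan of the extracellular matrix. From 3 months of age they drank regular water or water with 15% fructose for 6 weeks, which gives 4 groups of 4 libraries: WT water, WT fructose, BgnKO water and BgnKO fructose. The labels do not tie the libraries of a group to separate animals, and the p-values below cover only the variation among these libraries, which may be technical.

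The choroid plexus is a fold of epithelium over a vascular stroma that lies in the brain ventricles and secretes cerebrospinal fluid. Its epithelial cells make carrier proteins, chief among them transthyretin, and hold a dense set of ion channels, transporters and junction proteins. Ependymal cells line the ventricle walls and bear motile cilia. The hippocampus borders the lateral ventricle, so a dissected piece can carry both. In RNA of a whole tissue piece, fewer cells of a type and less RNA per cell cannot be told apart.

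Bgn was measured first, as the check of the genotype. Bgn stood at 9.94, 11.7, 17.7 and 24.2 FPKM in WT water and at 5.42, 20.7, 21.2 and 17.2 FPKM in WT fructose. In BgnKO water it stood at 4.46, 7.23, 7.19 and 7.60 FPKM and in BgnKO fructose at 5.02, 6.69, 6.73 and 7.11 FPKM. The library labelled WT fructose 1 thus lay inside the range of the BgnKO libraries, and the other 7 WT libraries lay above it. Over both drinks, Bgn was lower in BgnKO by 1.08 on the log2(FPKM + 1) scale (SE 0.24, limma adjusted p = 0.0168, 8 libraries a genotype). On each drink alone the difference was -1.09 on water and -1.07 on fructose, and neither had a limma adjusted p under 0.05. The number of genes at 1 FPKM or more ran from 12343 to 12885 over the libraries. All 19 markers of hippocampal neurons were measured, with a summed level of 2062 to 3206 FPKM.

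The 26 choroid plexus genes varied between libraries of the same group far more than most genes did, and they varied together. The library labelled WT fructose 1 was the lowest of the 16 for all 26 of them. BgnKO fructose 4 was the highest for 24 and BgnKO fructose 2 for the other 2, F5 and Prlr. BgnKO water 4 was among the lowest 2 libraries for 20 of the 26. The SD within groups, on the log2 scale, had a median of 0.811 over the 26 genes (range 0.336 to 1.32) against 0.149 over all genes tested, and 0.432 over the 7 ependymal genes. With replicates 2 to 4 alone these medians were 0.708, 0.105 and 0.407.

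**Figure D1:**
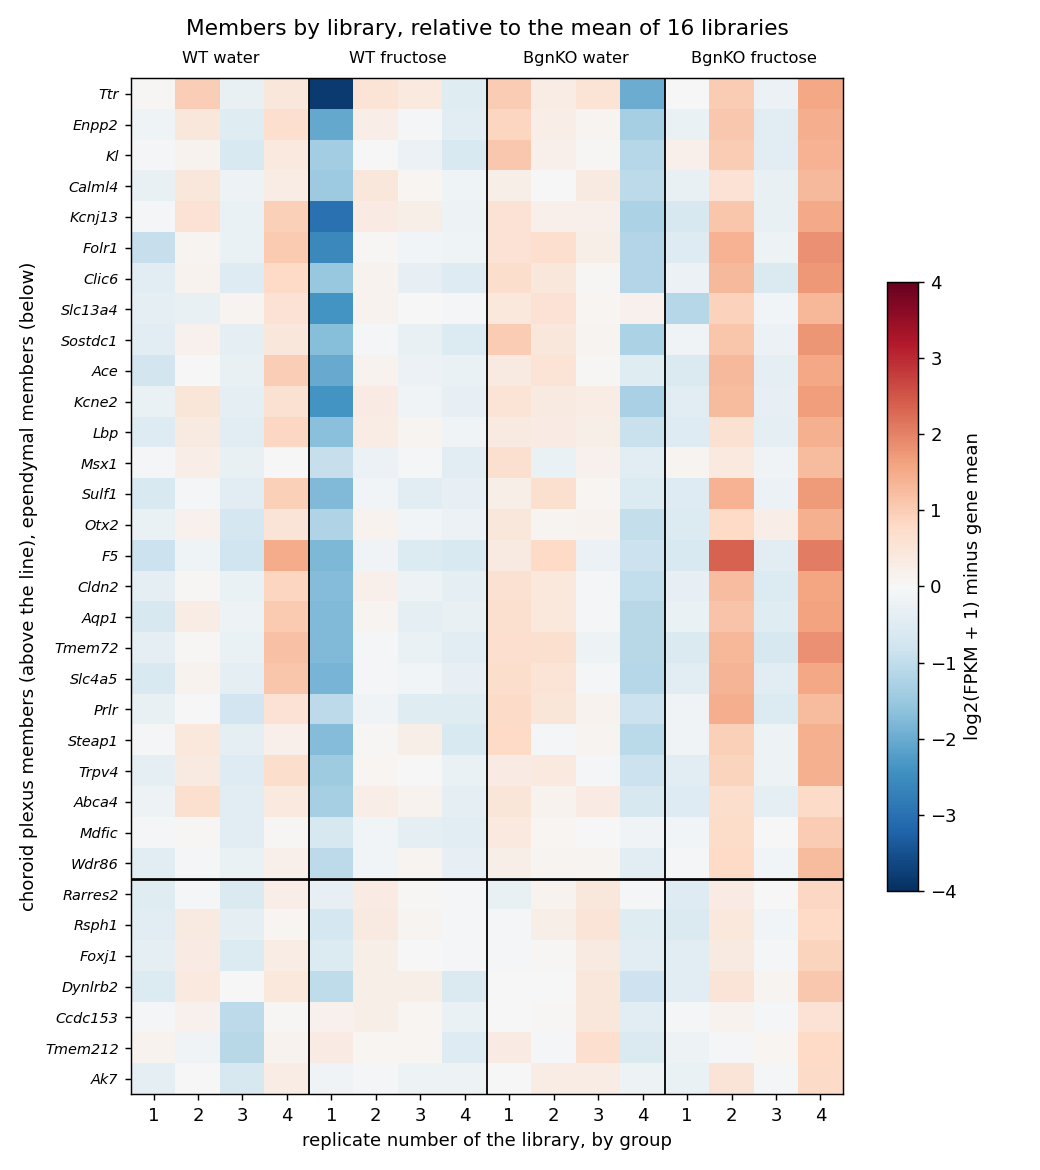
Each row is a gene, with choroid plexus genes above the line and ependymal genes below, and each column is a library, ordered by group and replicate number; the colour gives log2(FPKM + 1) minus that gene's mean over 16 libraries. The library labelled WT fructose 1 is low in all 26 choroid plexus rows, and BgnKO fructose 4 is the highest library in 24 of them and in all 7 ependymal rows tested.

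Ttr encodes transthyretin, the carrier of thyroxine that choroid plexus epithelium secretes into cerebrospinal fluid. Ttr was at 3110.2, 5957, 2457 and 4134 FPKM in WT water and at 212, 4367, 3934 and 2147 FPKM in WT fructose. It was at 6127, 3697, 4436 and 770.4 FPKM in BgnKO water and at 3024, 6074, 2575 and 8924 FPKM in BgnKO fructose. The libraries spread 42.1-fold, from 0.0589% to 2.45% of all FPKM on named genes, and the ranges of the 4 groups overlapped. Ttr ranked 21 of the 12648 genes by SD within groups.

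Enpp2 encodes autotaxin, the secreted enzyme that makes lysophosphatidic acid. Its levels were 318, 494, 255 and 570.3 FPKM in WT water, 86.8, 435, 349 and 265 in WT fructose, 646, 434, 391 and 143 in BgnKO water, and 299, 755, 268 and 979 in BgnKO fructose. The low libraries were those of Ttr, the library labelled WT fructose 1 and BgnKO water 4. Kl encodes klotho, a co-receptor for the hormone FGF23. Its levels were 28.2, 32.0, 18.4 and 38.5 FPKM in WT water, 10.4, 29.2, 24.4 and 18.4 in WT fructose, 62.7, 33.2, 29.5 and 12.6 in BgnKO water, and 33.1, 59.8, 21.2 and 76.6 in BgnKO fructose. The 7.38-fold spread of Kl was narrower than that of Ttr, with the same library lowest and the same highest.

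The other secreted and surface proteins showed the same lowest library at lower levels. Folr1, the folate receptor alpha, ran from 0.976 to 41.7 FPKM, Sostdc1, a secreted antagonist of BMP and Wnt signals, from 2.57 to 37.95 FPKM, and Ace, the angiotensin-converting enzyme, from 1.88 to 32.7 FPKM. Lbp, which binds bacterial lipopolysaccharide, ran from 1.84 to 23.5 FPKM, Sulf1, which trims heparan sulfate, from 0.978 to 20.7 FPKM, and Prlr, the prolactin receptor, from 0.917 to 9.87 FPKM. F5, coagulation factor V, ran from 0.343 to 23.1 FPKM and had values at 2 entries in the table. The second entry held 5.43 FPKM in WT water 4, 9.47 in BgnKO fructose 2, 4.83 in BgnKO fructose 4 and 1.86 in BgnKO water 2. It held at most 0.349 FPKM in the other 12 libraries. The first entry was also highest in the named libraries, at 6.57, 13.6, 13.5 and 5.24 FPKM in that order. In the others the first entry held at most 4.96 FPKM.

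The channels and transporters that move ions and water across the epithelium followed the same libraries. Kcnj13 encodes the potassium channel Kir7.1. Its levels were 10.8, 17.7, 9.33 and 23.0 FPKM in WT water, 0.589, 14.6, 13.8 and 9.92 in WT fructose, 17.8, 13.3, 13.5 and 4.18 in BgnKO water, and 7.03, 25.6, 9.23 and 34.7 in BgnKO fructose. In the library labelled WT fructose 1, Kcnj13 was at 4.41% of its own median over libraries. Clic6 encodes a chloride intracellular channel protein. Its levels were 8.11, 12.5, 7.55 and 20.4 FPKM in WT water, 3.29, 12.7, 8.77 and 7.54 in WT fructose, 19.2, 15.9, 11.9 and 4.51 in BgnKO water, and 9.52, 29.3, 7.33 and 39.8 in BgnKO fructose. The BgnKO water group alone spanned 4.51 to 19.2 FPKM of Clic6, wider than the step between any group means.

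Slc13a4, a sodium-coupled sulfate transporter, departed from the others in BgnKO water 4. It stood at 8.72, 9.11, 12.4 and 17.4 FPKM in WT water, 1.37, 12.5, 11.4 and 10.7 in WT fructose, 15.6, 17.7, 12.1 and 13.1 in BgnKO water, and 4.64, 22.5, 10.6 and 29.9 in BgnKO fructose. BgnKO water 4 was thus at 107% of the Slc13a4 median, while the median over the 26 choroid plexus genes in that library was 42.0% of their own medians and Ttr was at 20.2%. Per 1000 FPKM of Ttr, Slc13a4 was at 17.01 FPKM in BgnKO water 4 against a median of 3.53 over libraries.

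The remaining members of this group were lower. Kcne2, a potassium channel beta subunit, ran from 0.687 to 27.4 FPKM, Cldn2, a tight junction protein, from 0.558 to 14.4, Aqp1, a water channel, from 0.324 to 12.5, and Slc4a5, a sodium bicarbonate cotransporter, from 0.139 to 11.1. Steap1, of a family of metalloreductases, ran from 0.0756 to 8.54 FPKM, Trpv4, a cation channel, from 0.313 to 8.41, and Abca4, a lipid transporter, from 0.283 to 4.47. Slco1a5, an organic anion transporter, reached at most 0.289 FPKM (mean 0.0854) and was left out of the tests.

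Otx2 and Msx1 are homeobox transcription factors, and Otx2 is needed to form and maintain the choroid plexus. Otx2 was at 3.91, 5.72, 2.64 and 7.51 FPKM in WT water, 1.58, 5.47, 4.53 and 4.03 in WT fructose, 7.17, 5.35, 5.47 and 2.07 in BgnKO water, and 3.04, 9.39, 6.14 and 15.0 in BgnKO fructose. Msx1 was at 8.13, 10.3, 6.63 and 8.17 FPKM in WT water, 3.92, 6.90, 8.004 and 5.79 in WT fructose, 13.5, 6.82, 9.59 and 5.80 in BgnKO water, and 9.12, 11.2, 7.49 and 21.6 in BgnKO fructose. Msx1 spread 5.52-fold over libraries and Otx2 9.49-fold, and the groups of both overlapped.

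Mdfic encodes a regulator with a MyoD family inhibitor domain. Mdfic was at 2.06, 2.30, 1.38 and 2.32 FPKM in WT water, 1.03, 1.97, 1.44 and 1.36 in WT fructose, 3.18, 2.38, 2.18 and 1.93 in BgnKO water, and 1.97, 4.30, 2.18 and 5.45 in BgnKO fructose. The highest WT fructose library and the lowest BgnKO fructose library met at 1.97 FPKM. In the library labelled WT fructose 1, Mdfic and Msx1 kept 48.6% and 48.5% of their medians, the most of any choroid plexus genes there.

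Among the last 3 choroid plexus genes, Calml4, a calmodulin-like protein, was at 12.6, 21.8, 13.6 and 19.5 FPKM in WT water, 5.01, 21.7, 16.4 and 13.6 in WT fructose, 18.6, 15.8, 20.4 and 7.04 in BgnKO water, and 12.5, 23.7, 12.6 and 40.3 in BgnKO fructose. Tmem72, a transmembrane protein, was at 2.23, 3.29, 2.40 and 8.21 FPKM in WT water, 0.204, 2.89, 2.45 and 2.04 in WT fructose, 5.61, 5.45, 2.54 and 0.895 in BgnKO water, and 1.77, 9.28, 1.64 and 13.5 in BgnKO fructose. Its 66.2-fold spread was wider than the 8.04-fold of Calml4, with the same 2 low libraries. Wdr86, a WD-repeat protein, was at 1.15, 1.90, 1.47 and 2.38 FPKM in WT water, 0.444, 1.75, 2.22 and 1.35 in WT fructose, 2.49, 2.22, 2.21 and 1.21 in BgnKO water, and 1.82, 4.14, 1.75 and 6.10 in BgnKO fructose.

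**Figure D2:**
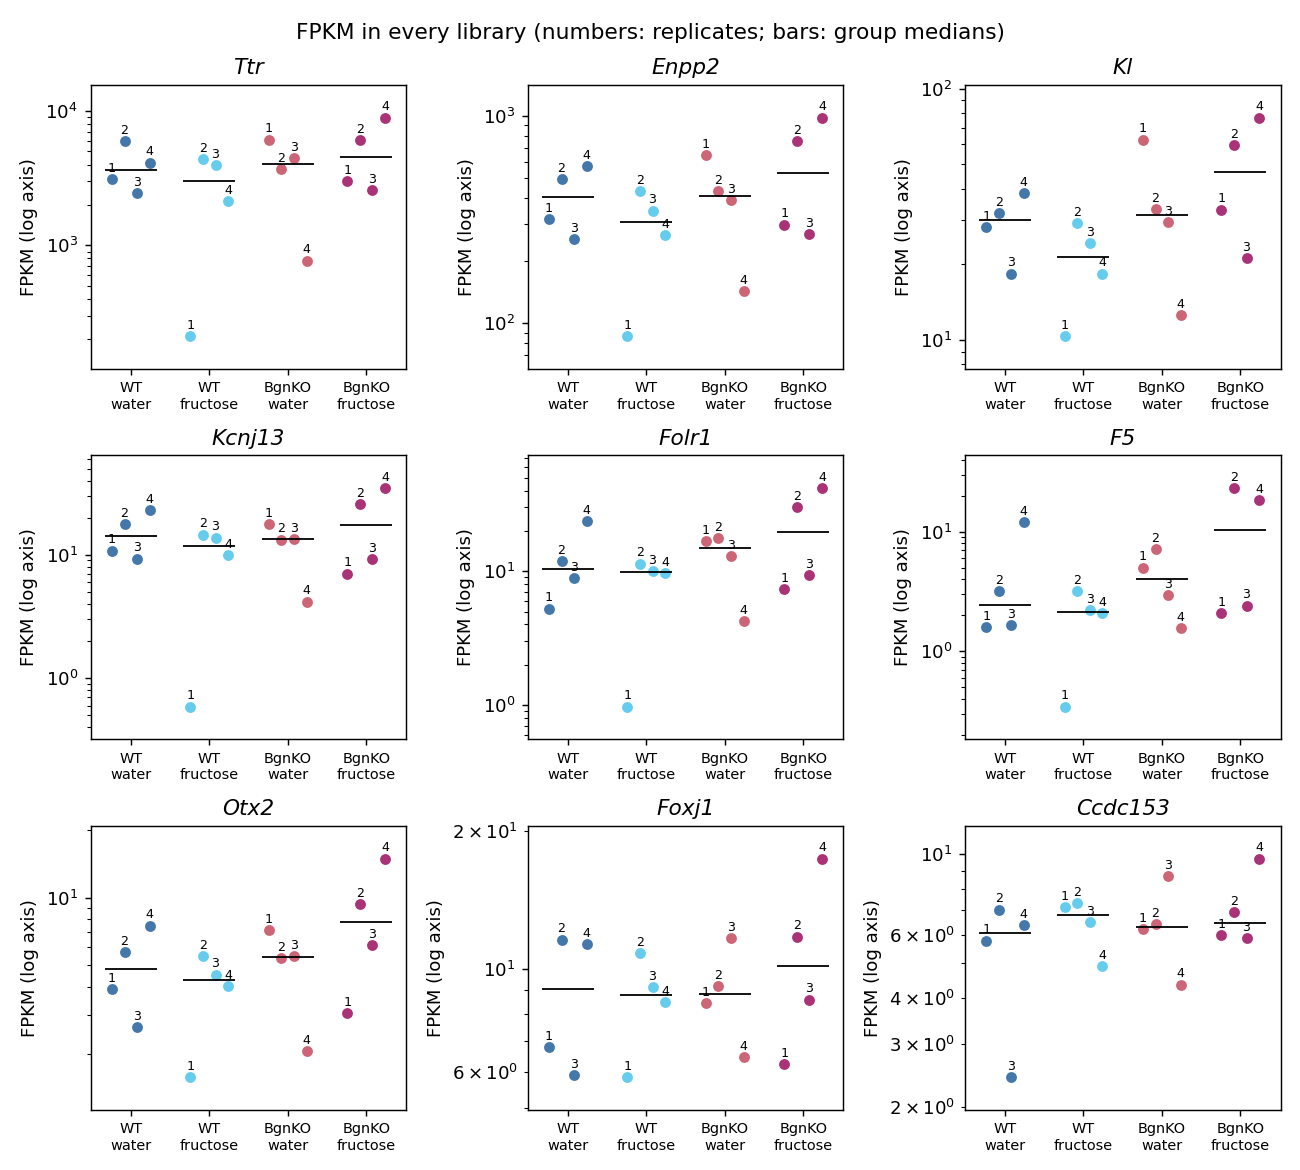
FPKM on a log axis of 9 genes in every library, by group; the number beside a point is the replicate number and the bar is the group median. Ttr falls to 212 FPKM in the library labelled WT fructose 1 and to 770.4 FPKM in BgnKO water 4, while Foxj1 and Ccdc153 of ependymal cells spread 2.98-fold and 4.01-fold.

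The ependymal genes spread less and did not share all of the low libraries. Foxj1 is the transcription factor that turns on genes of motile cilia. Foxj1 was at 6.78, 11.6, 5.89 and 11.4 FPKM in WT water, 5.84, 10.9, 9.15 and 8.48 in WT fructose, 8.45, 9.21, 11.7 and 6.45 in BgnKO water, and 6.24, 11.8, 8.60 and 17.4 in BgnKO fructose. Rsph1, a protein of the radial spokes of cilia, was at 7.54, 13.7, 7.91 and 11.1 FPKM in WT water, 6.08, 13.8, 11.3 and 9.86 in WT fructose, 9.86, 12.6, 15.5 and 7.23 in BgnKO water, and 6.70, 14.5, 9.57 and 18.9 in BgnKO fructose. The groups of both genes overlapped throughout.

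Rarres2 encodes chemerin, a secreted chemoattractant. Rarres2 was at 7.60, 10.4, 6.91 and 13.4 FPKM in WT water, 8.46, 14.0, 11.3 and 10.2 in WT fructose, 8.75, 11.995, 15.2 and 10.3 in BgnKO water, and 7.37, 14.0, 11.2 and 19.9 in BgnKO fructose. WT water 3, not the library labelled WT fructose 1, was its lowest. Dynlrb2, a dynein light chain, ran from 2.58 to 14.4 FPKM, Ccdc153, a coiled-coil protein, from 2.42 to 9.72, Tmem212, a transmembrane protein, from 1.71 to 9.15, and Ak7, an adenylate kinase of cilia, from 0.923 to 4.08. Cfap126, a protein of motile cilia measured under its older symbol, ran from 3.82 to 18.9 FPKM with the library labelled WT fructose 1 lowest.

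WT water 3 was the lowest library for 4 of the 7 ependymal genes and the library labelled WT fructose 1 for 3, while BgnKO fructose 4 was the highest for all 7. In the library labelled WT fructose 1, the 7 genes were at 39.6% (Dynlrb2) to 122% (Tmem212) of their own medians, with a median of 78.4%. The 26 choroid plexus genes there were at 2.97% (Steap1) to 48.6% (Mdfic), with a median of 17.2%. Tmem212 and Ccdc153 were above their medians in that library, at 122% and 111%. In BgnKO fructose 4, the medians were 329% over the choroid plexus genes and 185% over the ependymal genes.

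Because FPKM is scaled by length, ratios within a library can be set side by side. Without the library labelled WT fructose 1 and BgnKO water 4, Enpp2 lay between 82.9 and 138 FPKM per 1000 FPKM of Ttr and Kl between 5.38 and 10.9. In the library labelled WT fructose 1 they were at 409.9 and 49.0 per 1000, since Ttr was further below its own median there, at 5.55%, than Enpp2 at 23.5% and Kl at 35.4%. Kcnj13 kept its ratio, 2.32 to 5.57 per 1000 over all 16 libraries, and so did Kcne2, 1.78 to 3.46 per 1000.

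Levels of other cell types were set beside these. The 25 choroid plexus genes tested other than Ttr summed to 126.5 FPKM in the library labelled WT fructose 1 and to 1532 FPKM in BgnKO fructose 4. That is a 12.1-fold spread, against 2.92-fold for the ependymal genes and 1.55-fold for the 19 markers of hippocampal neurons. Enpp2 alone gave 86.8 FPKM of the choroid plexus sum in the library labelled WT fructose 1 and 979 FPKM in BgnKO fructose 4. The meningeal and fibroblast list without Igf2, which choroid plexus also expresses, and without Bgn held 22 genes, of which 19 reached a mean of 1 FPKM. This shortened list was made after the values had been seen. It was lowest in the library labelled WT fructose 1, at 28.0% of its median, and highest in BgnKO fructose 4, at 177%. In BgnKO water 4 it was at 123% where the choroid plexus sum was at 42.2%, and in WT water 2 at 49.8% where the choroid plexus sum was at 128%. The neuron markers were at 101%, 73.9%, 95.2% and 108% in those 4 libraries, in the order the libraries are named. The part of any of these lists in the results below was not tested.

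**Figure D3:**
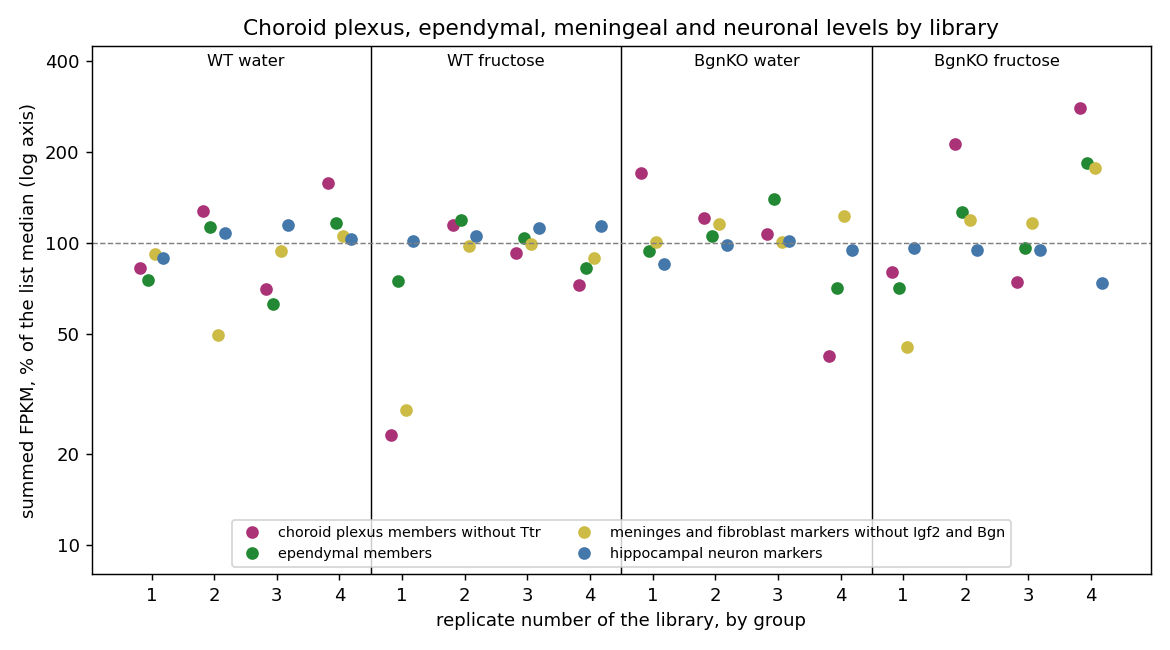
Summed FPKM of 4 gene lists in every library, as percent of the list's median over the 16 libraries on a log axis; points are libraries by group and replicate number, and the dashed line is 100%. The choroid plexus genes without Ttr run from 23.1% to 279% and the ependymal genes from 63.0% to 184%, while the neuron markers stay between 73.9% and 115%. Enpp2 holds the largest part of the choroid plexus sum.

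No gene of the list passed the test in any of the 7 comparisons of groups, and the choroid plexus genes were measured with wide intervals. Each test was limma on log2(FPKM + 1) over all 12648 genes with Benjamini-Hochberg adjustment and a threshold of 0.05. The fit held no block for the replicate number. With such a block, 2 members were called in BgnKO fructose against WT fructose and 1 in BgnKO against WT over both drinks. There, 19.6% and 19.8% of all genes were called. For the choroid plexus genes, the 95% interval of a fold change between groups reached a median of 1.08 log2 units to each side, against 0.22 over all genes tested. A miss at this width does not show that the groups were alike.

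The genotypes were compared first on each drink. In BgnKO water against WT water, 0 of the 33 genes were called, against 0.387% of all genes tested. The choroid plexus log2 fold changes had a median of -0.00, with 13 above and 13 below 0, and ranged from -0.36 to 0.31. The ependymal median was 0.25, with 6 of 7 above 0. With 1 library left out, the choroid plexus median ran from -0.19 (without BgnKO water 1) to 0.30 (without BgnKO water 4), and it was -0.36 in replicates 2 to 4.

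In BgnKO fructose against WT fructose, 0 of the 33 were called, against 3.76% of all genes tested (1.63% higher and 2.13% lower), and all 33 log2 fold changes were above 0. Choroid plexus genes had a median of 1.06 (range 0.47 to 1.61) and ependymal genes 0.21 (0.11 to 0.59), where all genes tested had -0.01. For 9 of the 26 choroid plexus genes the unadjusted p was under 0.05, and for 0 of the 7 ependymal genes. Over all genes, 2691 of the 12648 tested had an unadjusted p under 0.05. Mdfic came nearest, at 0.80 (SE 0.22, adjusted p = 0.0512), followed by Msx1 at 0.83 (SE 0.28, adjusted p = 0.111) and Wdr86 at 0.81 (SE 0.30, adjusted p = 0.131). Kl differed by 1.10 (SE 0.45, adjusted p = 0.174), and F5 by 1.61 (SE 0.68, adjusted p = 0.185). Ttr differed by 1.44 (95% interval -0.32 to 3.19, adjusted p = 0.333).

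The count of all genes called in this comparison moved with single libraries, from 147 without WT fructose 4 (1.16%) to 940 without BgnKO fructose 1 (7.43%), against 475 with all. The choroid plexus median moved with single libraries too, up to 1.36 without BgnKO fructose 3. Without the library labelled WT fructose 1, whose Bgn level lay in the BgnKO range, the choroid plexus median was 0.62 and Ttr differed by 0.45. The meningeal and fibroblast list without Igf2 and Bgn was also lowest in that library, at 59.5 FPKM against a median of 212 FPKM. What lowered Bgn there was not tested. Without BgnKO fructose 4 the choroid plexus median was 0.71 and the ependymal median -0.01. Without both that library and BgnKO fructose 4, the choroid plexus median was 0.29, the ependymal median 0.01 and the difference of Ttr 0.12. Mdfic then differed by 0.52 (limma adjusted p = 0.247), and over all alternatives tried its adjusted p ran from 0.0175 to 0.247. With the 4 libraries of replicate 1 given a term of their own, limma called Mdfic (adjusted p = 0.0222) and Wdr86 (adjusted p = 0.0496), 2 of the 33 members, where it called 17.3% of all genes tested.

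The effect of the drink was compared within each genotype, and these comparisons share groups with those above. In WT fructose against WT water, 0 of the 33 genes were called, against 0.00791% of all genes tested. All 26 choroid plexus log2 fold changes were below 0, with a median of -0.58, and the ependymal median was 0.04. With 1 library left out, the choroid plexus median ran from -0.79 (without WT fructose 2) to -0.18 (without the library labelled WT fructose 1, where Ttr went from -1.15 to -0.15). It was -0.32 without WT water 4. In BgnKO fructose against BgnKO water, 0 of the 33 were called, against 0% of all genes tested, where 1630 genes had an unadjusted p under 0.05 but 0 of the 33 did. The choroid plexus median was 0.49 with 25 of 26 above 0, and with 1 library left out it ran from 0.14, without BgnKO water 4 or without BgnKO fructose 4, to 0.77, without BgnKO fructose 1. In replicates 2 to 4 it was 0.99. There, 6 of the 33 genes had an unadjusted p under 0.05, with 0 called and 0% of all genes called. The share of all genes with an unadjusted p under 0.05 is not given for that fit. The ependymal median was 0.13, and -0.04 without BgnKO fructose 4.

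The difference between the genotypes in the effect of fructose was tested as an interaction. It was called for 0 of the 33 genes, against 0.00791% of all genes tested. All 26 choroid plexus values were above 0, with a median of 1.08. With 1 library left out that median ran from 0.66 (without the library labelled WT fructose 1) to 1.37 (without BgnKO fructose 3). The 7 ependymal values had a median of 0.07, with 4 above 0, and -0.15 to 0.26 with 1 library left out. Mdfic had the smallest p among the members, at 0.62 (SE 0.31, adjusted p = 0.999).

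Over both drinks, BgnKO against WT called 0 of the 33 genes, against 4.99% of all genes tested (2.12% higher and 2.87% lower), with all 33 above 0. The choroid plexus median was 0.49 and the ependymal median 0.21. Mdfic differed by 0.49 (SE 0.15, adjusted p = 0.0759), and the ependymal gene Ak7 by 0.33 (SE 0.16, adjusted p = 0.236). With 1 library left out, the choroid plexus median ran from 0.29 (without the library labelled WT fructose 1) to 0.65 (without BgnKO water 4), and the share of all genes called from 3.10% (without WT fructose 4) to 8.39% (without BgnKO fructose 1). Over both genotypes, fructose against water called 0 of the 33, against 0.00791% of all genes tested, with a choroid plexus median of -0.06 and an ependymal median of 0.09. The choroid plexus median changed sign with single libraries, from -0.24 without BgnKO fructose 4 to 0.15 without the library labelled WT fructose 1, and was 0.32 in replicates 2 to 4. The ependymal median was -0.00 without BgnKO fructose 4. Cfap126 was not called in any comparison, with log2 fold changes of -0.14 to 0.29.

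**Figure D4:**
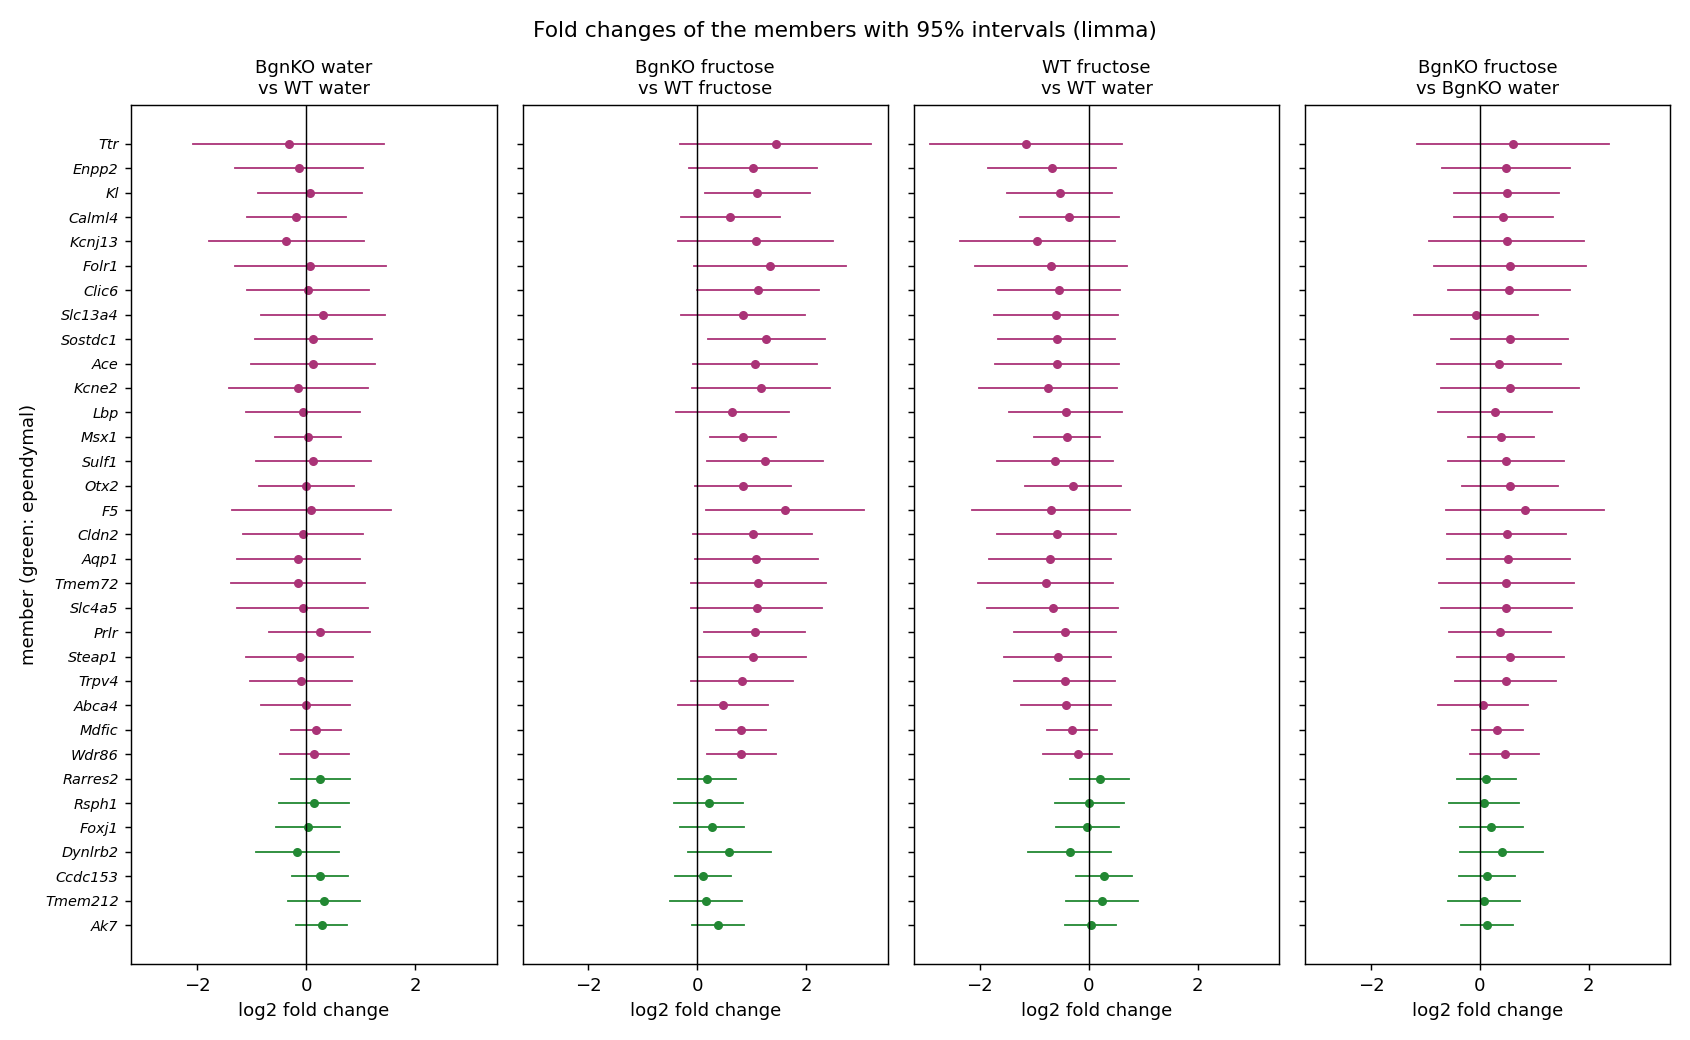
Log2 fold changes of the genes with 95% intervals from limma, 1 panel per comparison of groups; purple marks choroid plexus genes and green ependymal genes, and the black line is 0. The choroid plexus genes center on 1.06 in BgnKO fructose against WT fructose and on -0.58 in WT fructose against WT water, with wider intervals than the ependymal genes.

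Further genes of the same cell types were examined beside the members. Of 44 other choroid plexus genes tested, 0 were called in any of the 7 comparisons, and in BgnKO fructose against WT fructose their median was 0.53 with 43 above 0. Of 50 other ciliated ependymal genes tested, 1 was called, and it was called in both comparisons that follow, where 1.63% and 2.12% of all genes tested were called as higher. Wdr63, a WD-repeat protein of axonemal dynein, was higher in BgnKO fructose than in WT fructose by 1.11 (SE 0.23, adjusted p = 0.0170) and over both drinks by 0.97 (SE 0.16, adjusted p = 0.00246). The median of those 50 genes was 0.20 in the fructose groups, near the 0.21 of the 7 ependymal members.

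The way the genes followed Ttr from library to library was described by the correlation of log2(FPKM + 1) with Ttr over 16 libraries, tested by permutation (100000 resamples, two-sided) with Benjamini-Hochberg adjustment over 12647 genes. Of the 25 other choroid plexus genes tested, 19 were called as rising with Ttr, against 0.522% of all genes, and Pearson's r ran from 0.69 to 0.96 with a median of 0.85. Of the 7 ependymal genes, Dynlrb2 and Rsph1 were called, and the median r was 0.46. Within groups, where r was taken on deviations from the group means, 9 choroid plexus genes and 0 ependymal genes were called, against 0.372% of all genes. In replicates 2 to 4 alone, 7 and 2 were called, against 0.237% of all genes. The list was drawn up with earlier results of these data in view, so these calls are no independent support for it. The permutations over 16 libraries treated them as exchangeable, although the replicate 1 libraries deviated together (correlations of 0.61 to 0.75).

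Kcnj13 had the highest r of the members, 0.96 (Spearman's rho 0.92, both with p = 1e-05, the smallest that the permutations can give, adjusted p = 0.00333 for r), and r was 0.88 without the 2 libraries farthest from the median of Ttr, the library labelled WT fructose 1 and BgnKO water 4. Enpp2 followed with r = 0.95 (rho 0.96), and 0.94 without them. Dynlrb2 had the highest r of the ependymal genes, 0.83 (rho 0.86), and 0.79 without them. Slc13a4 had r = 0.75 (permutation p adjusted over all genes 0.328) but rho 0.55, and r was 0.45 in replicates 2 to 4, the lowest of the choroid plexus genes.

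Tmem212 and Ccdc153 followed Ttr least over all 16 libraries, with r = 0.25 and 0.31. Without the 2 farthest libraries they had r = 0.66 and 0.71, and the median over the 7 ependymal genes rose from 0.46 to 0.74. That of the 25 choroid plexus genes went from 0.85 to 0.83. Cfap126 had r = 0.76 (rho 0.79).

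**Figure D5:**
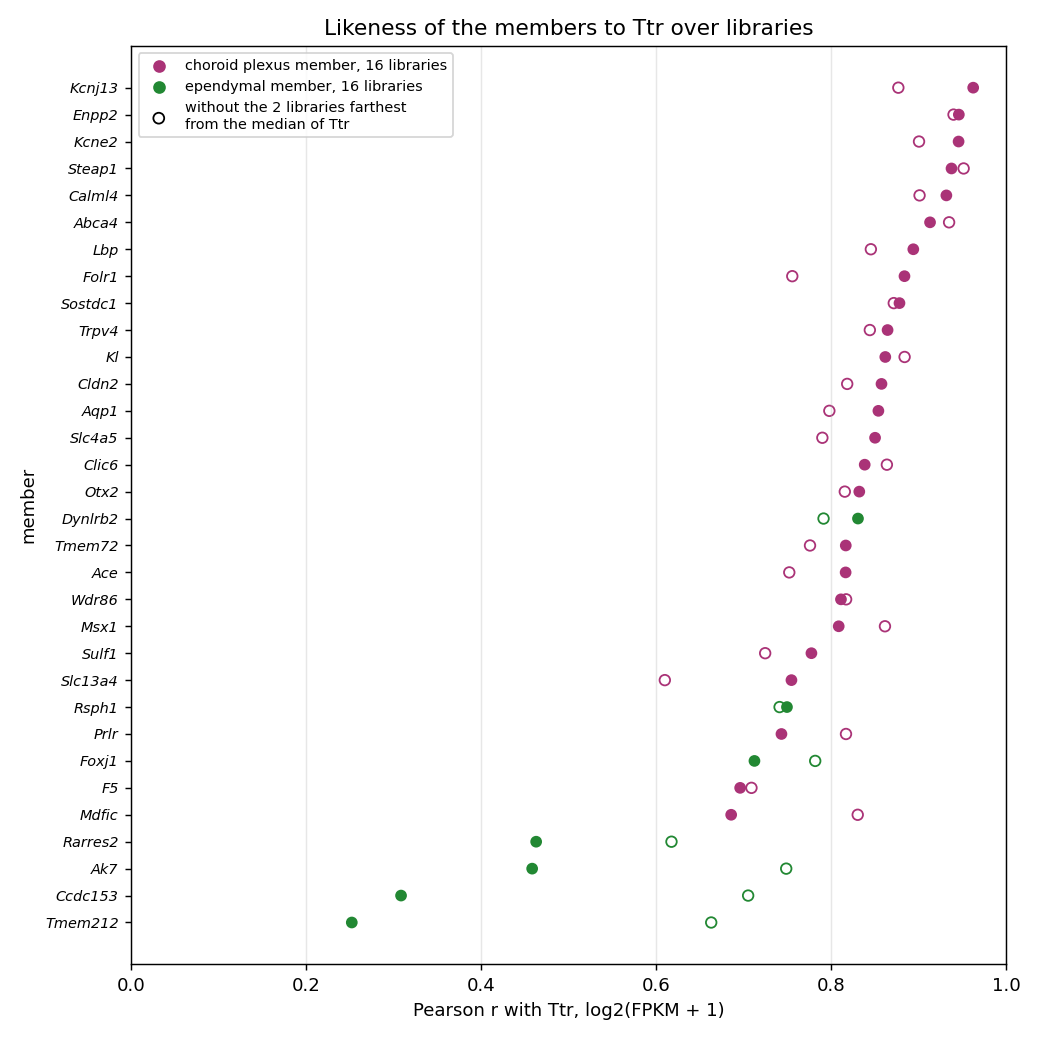
Pearson's r with Ttr of each gene on log2(FPKM + 1), over all 16 libraries and without the 2 libraries farthest from the median of Ttr, with choroid plexus and ependymal genes marked in the legend. Kcnj13 is highest at 0.96, and Tmem212 moves from 0.25 to 0.66 when the 2 libraries are left out.

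Of the 50 genes with the highest r with Ttr among all genes tested, 20 were choroid plexus members. Among the genes outside the list, the highest were Spint2, a protease inhibitor, at 0.95, Rdh5, a retinol dehydrogenase, at 0.94, Wfdc2, a secreted protein, at 0.93, and the epithelial keratin Krt18 at 0.91. Gpx8 followed at 0.91, Epn3 at 0.89, the joined entry of C1qtnf5 and Mfrp at 0.88, the ciliary protein Tekt1 at 0.88, Ccdc135 at 0.87 and Pla2g5 at 0.87. The highest r of any gene, 0.98, was that of 1500015O10Rik, an older symbol of Ecrg4, named here after its value was seen. Other cell types gave lower medians, 0.42 over 21 meningeal and fibroblast markers, 0.06 over 17 astrocyte markers and -0.31 over 19 neuron markers. All these values share the same 16 libraries.

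Promoters of some of the genes are given as sequence, and their part in the levels above was not tested. Of the genes printed, Tmem212 and Ccdc153 followed Ttr least over the libraries, with r of 0.25 and 0.31. RefSeq promoters of 300 bases, 250 before and 50 after the start of transcription (GRCm38.p6), were matched by symbol to 24 of the 34 genes found under their own name. Printed are the 3 choroid plexus and the 3 ependymal genes of highest mean level among those that the matched table holds, 5′ to 3′ on the strand of the gene. Capitals mark GTTGCC, an element that RFX factors, regulators of cilia genes, are known to bind.
Kl, chr5:150952357-150952656, plus strand: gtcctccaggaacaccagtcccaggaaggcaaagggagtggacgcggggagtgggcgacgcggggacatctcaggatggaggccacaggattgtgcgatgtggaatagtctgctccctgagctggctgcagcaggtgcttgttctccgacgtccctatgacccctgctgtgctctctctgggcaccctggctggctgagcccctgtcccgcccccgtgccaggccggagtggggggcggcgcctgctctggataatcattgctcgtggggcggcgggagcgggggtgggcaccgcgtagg
Calml4, chr9:62857854-62858153, plus strand: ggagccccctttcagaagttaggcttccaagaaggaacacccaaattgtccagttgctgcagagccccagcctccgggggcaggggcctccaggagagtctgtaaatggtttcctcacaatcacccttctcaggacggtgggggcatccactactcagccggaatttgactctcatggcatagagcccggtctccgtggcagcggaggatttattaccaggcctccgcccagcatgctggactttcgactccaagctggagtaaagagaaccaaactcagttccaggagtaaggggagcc
Kcnj13, chr1:87394680-87394979, minus strand: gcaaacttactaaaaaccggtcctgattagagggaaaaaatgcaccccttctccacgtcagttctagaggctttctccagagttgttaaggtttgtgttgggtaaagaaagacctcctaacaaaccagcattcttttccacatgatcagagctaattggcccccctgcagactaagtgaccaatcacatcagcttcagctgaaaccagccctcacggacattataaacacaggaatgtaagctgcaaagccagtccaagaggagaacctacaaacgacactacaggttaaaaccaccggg
Dynlrb2, chr8:116504765-116505064, plus strand: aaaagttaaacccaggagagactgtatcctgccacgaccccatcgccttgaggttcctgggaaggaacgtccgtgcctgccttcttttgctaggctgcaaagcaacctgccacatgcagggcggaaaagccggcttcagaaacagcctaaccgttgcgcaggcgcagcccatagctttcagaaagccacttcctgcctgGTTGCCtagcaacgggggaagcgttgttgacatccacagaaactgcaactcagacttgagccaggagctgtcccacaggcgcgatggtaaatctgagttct
Ccdc153, chr9:44240427-44240726, plus strand: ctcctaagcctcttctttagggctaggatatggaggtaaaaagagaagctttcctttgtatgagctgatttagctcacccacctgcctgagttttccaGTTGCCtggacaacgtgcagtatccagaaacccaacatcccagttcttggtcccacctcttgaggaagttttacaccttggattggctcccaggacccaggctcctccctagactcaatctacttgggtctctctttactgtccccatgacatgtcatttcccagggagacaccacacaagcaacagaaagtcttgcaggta
Tmem212, chr3:27896319-27896618, minus strand: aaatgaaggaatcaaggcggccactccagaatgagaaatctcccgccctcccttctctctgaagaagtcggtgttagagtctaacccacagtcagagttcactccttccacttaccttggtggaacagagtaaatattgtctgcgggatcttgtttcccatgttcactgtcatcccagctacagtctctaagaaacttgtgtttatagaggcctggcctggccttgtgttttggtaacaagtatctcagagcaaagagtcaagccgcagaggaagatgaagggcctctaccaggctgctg

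GTTGCC or its reverse complement GGCAAC was in 12.5% of all 32851 promoters of the table, in 5 of the 28 promoters of choroid plexus genes and in 2 of the 4 of ependymal genes, those of Ccdc153 and Dynlrb2. In Dynlrb2 it begins 51 bases before the start, and in Ccdc153 152 bases before. TAATCC, which OTX factors bind, or its reverse complement GGATTA was in 7.06% of all promoters, in 3 of the 28 choroid plexus promoters, of Abca4, Ace and Otx2 itself, and in 0 of the 4 ependymal ones. The forkhead element GTAAACA or its reverse complement TGTTTAC was in 3.65% of all promoters, in 1 of the 28 (Prlr) and in 1 of the 4 (Ak7). These matches describe letters in the window only, and no search was made outside it.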

How the data were processed

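RNA sequencing of polyadenylated hippocampal RNA was measured in 16 libraries, 4 a group. Per the labels' protocols, cDNA was primed with random hexamers and fragments of 200 to 400 bp were amplified. The authors deposited FPKM per gene locus; per the submitters' processing notes TopHat, Bowtie, Cufflinks and Cuffdiff were used with the mouse build mm10. Versions, annotation, strand setting and normalization are not given in the sources used here. Depth is unknown from FPKM, so no counting intervals are given and low values are less certain. FPKM levels can shift between libraries when a very abundant gene such as Ttr changes its share, here 0.0589% to 2.45% of FPKM on named genes.

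Of 27670 loci, 4269 without a gene name were left out, and loci of 1 name were summed (711 names). The 4 columns of group values by the authors were not used. The filter was a mean over the libraries of 1 FPKM or more. The model was limma 3.58.1 with an intensity trend, run in R 4.3.3 on log2(FPKM + 1), with 1 mean per group and 16 libraries sharing the spread. Fold changes on this scale understate those of low genes. Likeness to Ttr used numpy 2.4.6 and scipy 1.17.1 in Python 3.11.15. Both procedures were tested on simulated data.

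Members, gene lists and tests were chosen with earlier results of these data known. Values in every library are given for the 3 members of highest mean in each of 5 lists (secreted and surface proteins, channels and transporters, regulators, other choroid plexus genes, ependymal genes) and would be for any member called. Same-numbered libraries deviated together in the comparisons of fructose with water (correlations of 0.118 to 0.699 in WT and 0.197 to 0.612 in BgnKO), so the numbers were taken to pair them. The SEs and p-values reported above nevertheless came from the fit without pairs, and the replicate block was an alternative. With that block, 0 members were called in these comparisons, as without it. Between genotypes, the correlations of numbers 1 to 4 were 0.69, 0.07, 0.12 and -0.04 on water and 0.75, 0.41, 0.26 and 0.09 on fructose. Not every pair passed 0.1 on either drink (3 of 4 did on fructose), so the numbers were not taken as pairs there. Alternatives were a median-ratio rescaling, quantile normalization, a pseudocount of 0.1, no filter and a filter of 5 FPKM, the highest locus only, the replicate block, a term for replicate 1, replicates 2 to 4 only, and leaving out libraries.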

Additional observations from a re-analysis of the deposited data

Results flagged for a closer look

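Among 136 groups of 4 libraries (34 members in each of 4 groups), 6 held a library set apart from the other 3 on the log2(FPKM + 1) scale, by the ratio of its gap to the whole range of the group (Dixon's criterion at 95%). That is 4.41%, and chance gives about 1 in 20. All 6 were low values of choroid plexus genes in 2 libraries. In the library labelled WT fructose 1, Folr1 was at 0.976 FPKM where the other 3 libraries of its group had 9.62 to 11.4, and Kcnj13 was at 0.589 FPKM against 9.92 to 14.6. Slc4a5 was at 0.139 FPKM there against 2.26 to 3.00, and Slc13a4 at 1.37 FPKM against 10.7 to 12.5. In BgnKO water 4, Lbp was at 3.93 FPKM where the others had 9.69 to 10.8, and Kcne2 at 2.67 FPKM against 9.93 to 11.9. The library labelled WT fructose 1 also had a Bgn level of 5.42 FPKM, inside the BgnKO range, and meningeal markers at 28.0% of their median; BgnKO water 4 had them at 123%. The part of these in the low values was not tested.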

How the results depend on the processing

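The 105 log2 fold changes of the 15 members with values in every library were recomputed under 26 alternatives, giving 2709 values. Of these, 2540 kept their direction and side of the threshold, 12 newly passed the threshold, and 157 changed sign, none of them called as reported. In BgnKO fructose against WT fructose, 0 members were called as reported, 1 after quantile normalization, 1 with a pseudocount of 0.1, 1 in replicates 2 to 4 only, 2 with the replicate block and 2 with a term for replicate 1. The shares of all genes called there were 4.21%, 3.83%, 10.9%, 19.6% and 17.3%, against 3.76% as reported. Leaving out 1 library at a time gave 0 to 1, with 1 called without BgnKO water 1, BgnKO fructose 1 or BgnKO fructose 3. In those fits 3.95%, 7.43% and 1.92% of all genes were called, in that order. In BgnKO against WT over both drinks, 0 became 1 with the replicate block and 1 with the term for replicate 1. There, 2508 and 2279 of 12648 genes were called against 631 as reported. With 1 library left out, 0 to 1 were called (1 without BgnKO fructose 1, where 8.39% of all genes were called). Mdfic was called in each of these, joined in the fructose groups by Sulf1 with the block (adjusted p = 0.0464) and by Wdr86 with the term for replicate 1 (adjusted p = 0.0496). In the other 5 comparisons 0 members were called under every alternative, the block included. Over all genes, BgnKO water against WT water called 49 as reported, 79 in replicates 2 to 4, 125 with the block and 126 when replicate 1 had its own term. Of choroid plexus genes following Ttr, 19 became 7 in replicates 2 to 4 and 9 on deviations from group means. Of these, 7 and 8 were among the 19. The count was 24 with Spearman's rho and 14 without the 2 farthest libraries, with 19 and 11 among the 19. The shares of all genes called as rising were 0.237%, 0.372%, 0.901% and 0.506%, in that order. The choroid plexus median r was 0.85 over 16 libraries, 0.84 in replicates 2 to 4 and 0.83 on deviations from group means. The 2 ependymal genes became 3 with Spearman's rho and stayed 2 in replicates 2 to 4. They became 0 on deviations from group means and 0 without the 2 farthest libraries. The causes were not tested. Depth is unknown, so a low FPKM cannot be given a counting error.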

Other observations

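Genes of other cell types were called in the comparison of the genotypes on fructose. In BgnKO fructose against WT fructose, 5 of 17 astrocyte markers were called as higher, against 1.63% of all genes tested (3.76% in either direction). The median log2 fold change over the 17 was 0.42. The called astrocyte markers were Fgfr3 at 0.62, Slc39a12 at 0.62, Gja1 at 0.42, Gfap at 0.58 and Aqp4 at 0.54 (limma adjusted p of 0.0159 to 0.0480). Of 19 neuron markers, Wfs1 fell by 0.74 (limma adjusted p = 0.00346) and Iyd by 0.81 (adjusted p = 0.0173), against 2.13% of all genes called as lower. The median over the neuron list was -0.25. The endothelial list held 1 called gene of 16, Itm2a, higher by 0.62 (limma adjusted p = 0.0322), beside the 1.63% of all genes called as higher. The WT fructose group includes the library labelled WT fructose 1, whose Bgn level lay in the BgnKO range. In that library the meningeal and fibroblast list without Igf2 and Bgn was low too, at 59.5 FPKM against a median of 212 FPKM. What lowered Bgn there was not tested. Of the remaining lists, 0 of 21 meningeal, 0 of 12 microglial, 0 of 13 oligodendrocyte, 0 of 7 tanycyte, 0 of 12 striatal, 0 of 9 thalamic and 0 of 3 blood markers were called in that comparison.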
